A study of Mus musculus with 4 samples.

Results

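The RGK family is a small branch of the Ras superfamily with 4 genes in the mouse, Rrad, Gem, Rem1 and Rem2, and these 4 of 22252 measured genes are described here in gastrocnemius muscle. They were chosen by gene name. Rrad was the starting point because its counts had been higher in both libraries without muscle glucocorticoid receptor in earlier results from these data, so its genotype differences are given as a description and support nothing. RNA was sequenced from 4 groups of male C57BL/6J mice aged 7 weeks, with the RNA of 3 mice pooled into 1 library per group. The study set obese ob/ob mice, which lack functional leptin, against lean mice, and mice without the glucocorticoid receptor (GR, the product of Nr3c1) in myofibres against mice that keep it. All 4 groups carried Nr3c1 alleles in which the exon for the DNA-binding region was flanked by loxP sites. The lean GRf/f and ob/ob GRf/f groups carried no Cre, and the lean GRmKO and ob/ob GRmKO groups also carried Cre under the Acta1 promoter, which is active in myofibres. Other cells of the muscle therefore keep the receptor, and Cre and the deletion cannot be told apart because no group had Cre alone.

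RGK proteins bind guanine nucleotides through a Ras-like core, but they differ from Ras in their nucleotide-binding motifs and lack the lipid-modified C-terminus that anchors Ras to membranes. They bind the β subunits of voltage-gated calcium channels and reduce calcium current through these channels, and they also bind 14-3-3 proteins. Rrad (Ras-related associated with diabetes) was first described in muscle of people with type 2 diabetes, and it is expressed mainly in heart, skeletal muscle and lung. Gem is induced by mitogens, Rem1 is expressed in heart and other tissues, and Rem2 is best known from neurons.

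The 4 genes lie on 4 chromosomes (coordinates of GRCm38, GENCODE release M21). Rrad (ENSMUSG00000031880.7) spans chr8:104628070-104631327 on the minus strand, Gem (ENSMUSG00000028214.13) chr4:11704457-11714752 on the plus strand, Rem1 (ENSMUSG00000000359.3) chr2:152626951-152635198 on the plus strand, and Rem2 (ENSMUSG00000022176.11) chr14:54476100-54480431 on the plus strand. The transcript that the files list is 1577 bases long for Rrad, 2006 for Gem, 1663 for Rem1 and 1194 for Rem2. The phosphate-binding loop is a nucleotide-binding element shared by Ras-like GTPases, and 60 coding bases around it are printed to show how far the members differ even there. The capitals mark the 24 bases that encode the loop motif, and each stretch lies within 1 coding exon.
Rrad, chr8:104630584-104630643, minus strand: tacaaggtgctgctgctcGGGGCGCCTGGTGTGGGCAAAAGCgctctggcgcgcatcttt
Gem, chr4:11706136-11706195, plus strand: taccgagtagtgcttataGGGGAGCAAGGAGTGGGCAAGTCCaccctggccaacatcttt
Rem1, chr2:152628336-152628395, plus strand: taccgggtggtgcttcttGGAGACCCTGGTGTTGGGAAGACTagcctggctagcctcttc
Rem2, chr14:54477713-54477772, plus strand: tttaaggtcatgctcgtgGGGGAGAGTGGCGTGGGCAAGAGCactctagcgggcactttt
Of the 60 bases, 40 in Gem, 40 in Rem1 and 43 in Rem2 were the same as in Rrad. Over the aligned coding sequence, Rrad shared 66.6% of bases with Gem, 67.2% with Rem1 and 65.2% with Rem2, and the other 3 pairs shared between 63.6% and 64.6%. Pairs with Rem2, whose listed transcript has a shorter coding sequence, rest on 528 to 538 aligned bases, against 846 to 862 for the rest. The longest run identical between any pair was 23 bases, between Rrad and Rem1. None of the 1547 stretches of 31 bases in the Rrad transcript, and none of those in the other 3 transcripts, occurred in a protein-coding transcript of another gene, so that stretches of this length tell the members apart.

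The libraries held 20757146 (lean GRf/f), 19897754 (lean GRmKO), 20959781 (ob/ob GRf/f) and 20949729 (ob/ob GRmKO) expected counts, and 3 counts equal 0.143 to 0.151 CPM (a gene's counts scaled to the total of its library). With 1 library per group there is no measure of the variation between mice, and the 95% intervals given below cover counting error only. Nr3c1, the targeted gene, had 2593, 1333, 2134 and 819 expected counts in the same order of groups, lower in each GRmKO library than in its GRf/f counterpart, which is the direction the labels give. These counts come from the whole transcript and do not measure the deleted exon by itself. Myofibre markers summed to between 91632 and 111848 CPM, with 0 of 8 markers at 0. Cardiomyocyte markers, relevant because heart is the best-known site of Rrad, summed to between 0.648 and 2.72 CPM, and 2 of their 4 genes were at 0 in all 4 libraries. In bulk RNA, fewer cells of a type and less RNA per cell cannot be told apart.

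Rrad, an inhibitor of the muscle and heart calcium channel, had 62.0 expected counts in lean GRf/f, 244 in lean GRmKO, 109 in ob/ob GRf/f and 338 in ob/ob GRmKO muscle. As CPM these were 2.99 (2.33 to 3.83, Wilson interval), 12.3 (10.8 to 13.9), 5.20 (4.31 to 6.27) and 16.1 (14.5 to 17.9). The level was lowest in lean GRf/f, followed by ob/ob GRf/f, lean GRmKO and ob/ob GRmKO muscle, and no pair of these 4 intervals overlapped, which is a description of the values that chose the gene. Both GRmKO libraries were higher than both GRf/f libraries, and the ob/ob library was the higher one within each genotype. The lowest of the 4 values, in lean GRf/f muscle, rests on 62.0 counts and has the widest interval relative to its size.

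Gem, which inhibits calcium channels and also acts on the cytoskeleton, had 127, 197, 103 and 91.9 expected counts in the same order of groups. These corresponded to 6.13 CPM (5.14 to 7.28), 9.91 CPM (8.61 to 11.4), 4.91 CPM (4.05 to 5.96) and 4.39 CPM (3.58 to 5.39). Lean GRmKO muscle was highest and its interval overlapped none of the others. The other 3 libraries lay closer together, and of them only lean GRf/f and ob/ob GRmKO came near to separation, with intervals that still overlapped.

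Rem1, the member named Rem before its paralog was found, had 101, 109, 99.0 and 71.0 expected counts. Its levels were 4.88 CPM (4.0 to 5.91), 5.48 CPM (4.54 to 6.61), 4.72 CPM (3.88 to 5.75) and 3.39 CPM (2.69 to 4.27). The ob/ob GRmKO library was lowest, and its interval was separate from that of lean GRmKO alone. Rem2 was listed at 0 in all 4 libraries, which allows a level of up to 0.143 to 0.151 CPM. The listed Rem2 transcript has 540 coding bases, against 885 to 921 in the other members, and the gene has 3 protein-coding transcripts. The 0 may therefore not cover the whole gene. Rem2 has no fold change here, and the 3 members above 0 are the ones compared.

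**Figure D1:**
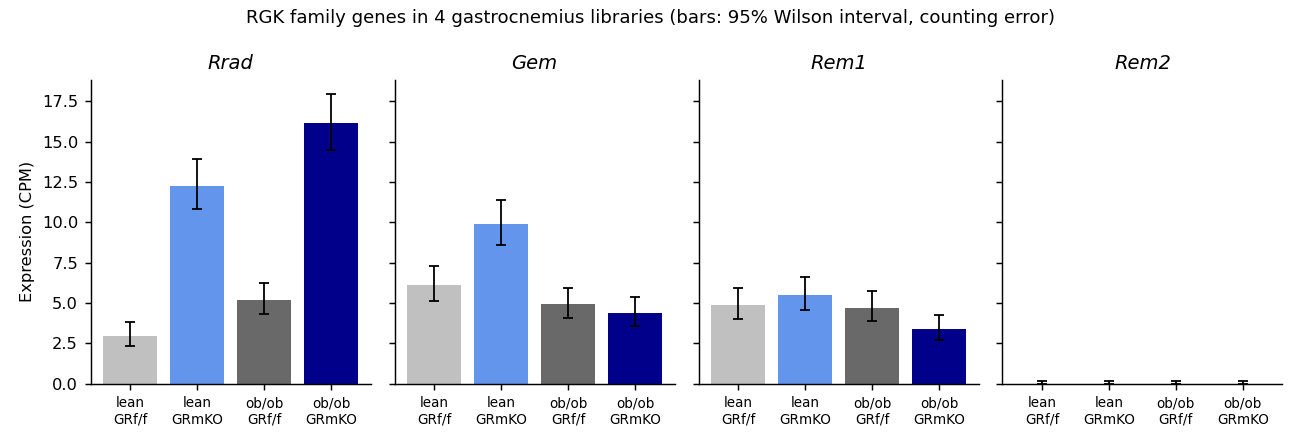
Expression of the 4 RGK genes in CPM (vertical axis) in each of the 4 libraries (horizontal axis), as bars with 95% Wilson intervals for counting error. Rrad is high in both GRmKO libraries (12.3 and 16.1 CPM), Gem is highest in lean GRmKO muscle (9.91 CPM), Rem1 varies least, and Rem2 is at 0.

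To set the members side by side, CPM was divided by transcript length and given as CPM per kb. In lean GRf/f muscle, Rrad was the lowest of the 3 measured members at 1.89 CPM per kb, against 3.05 for Gem and 2.94 for Rem1. The interval of Rrad (1.48 to 2.43) lay below that of Gem (2.56 to 3.63) and just met that of Rem1 (2.41 to 3.55). In lean GRmKO muscle Rrad was the highest at 7.78 CPM per kb, followed by Gem at 4.94 and Rem1 at 3.30. In ob/ob GRf/f muscle the 3 levels were 3.30 for Rrad, 2.45 for Gem and 2.84 for Rem1, with overlapping intervals. In ob/ob GRmKO muscle Rrad reached 10.2 CPM per kb, with Gem at 2.19 and Rem1 at 2.04, again not separable from each other.

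Rrad thus made up 24% of the length-corrected RGK total in lean GRf/f, 48.6% in lean GRmKO, 38.4% in ob/ob GRf/f and 70.8% in ob/ob GRmKO muscle. As a share of the members' expected counts, not divided by length, it was 21.4% (17.0 to 26.4, Wilson), 44.4% (40.3 to 48.5), 35.1% (30.0 to 40.5) and 67.5% (63.2 to 71.4), where lean GRmKO and ob/ob GRf/f just overlapped and the other pairs of libraries did not. The summed level was 7.88 CPM per kb in lean GRf/f, 16.0 in lean GRmKO, 8.59 in ob/ob GRf/f and 14.5 in ob/ob GRmKO muscle. The family total was thus 2.03-fold higher in GRmKO than in GRf/f muscle of lean mice and 1.68-fold higher in ob/ob mice. Between backgrounds the total was 1.09-fold in GRf/f and 0.903-fold in GRmKO muscle, although the share of Rrad was higher in the ob/ob library each time.

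In lean mice, Rrad was 4.10-fold (3.10 to 5.52, exact binomial interval) higher in GRmKO than in GRf/f muscle, a log2 fold change of 2.04. Of 11668 genes with at least 50 expected counts in either library, 256 (2.19%) were at least 2-fold higher in CPM, the rule used here to call a gene, and 244 (2.09%) were at least 2-fold lower. Rrad ranked 88 of the 11668 from the top. This contrast chose Rrad, so its rank is a description and nothing is read from it. Gem was 1.62-fold (1.29 to 2.04) higher, with a log2 value of 0.69, and was not called. Rem1 was at 1.12-fold (0.851 to 1.49), which does not exceed counting error. The median of all tested genes was 0.04 on the log2 scale, so all 3 values lay above it.

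In ob/ob mice, Rrad was 3.10-fold (2.49 to 3.89) higher in GRmKO than in GRf/f muscle, a log2 fold change of 1.63, and ranked 100 of 11396. In this comparison 237 genes (2.08%) were called higher and 327 (2.87%) lower. Gem was at 0.893-fold (0.667 to 1.2), a difference within counting error. Rem1 was lower, at 0.717-fold (0.521 to 0.983) with a log2 value of -0.48, and was not called. The median of tested genes was -0.04. The genotype change of Rrad was smaller by 0.40 in ob/ob than in lean mice on the log2 scale (counting interval of the difference -0.91 to 0.10), so the 2 backgrounds were not distinguishable at this depth.

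Between ob/ob and lean mice with intact receptor, Rrad was at 1.74-fold (1.26 to 2.42), a log2 fold change of 0.80. It was beyond counting error and not called, and 3.69% of the 11601 tested genes were at least as high. In this comparison 282 genes (2.43%) were called higher and 479 (4.13%) lower. Gem was at 0.802-fold (0.613 to 1.05) and Rem1 at 0.967-fold (0.728 to 1.29), both within counting error. The log2 value of Rem1, -0.05, changed sign under other scalings and reached 0.07. The median of all tested genes was -0.11 in this comparison.

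Between ob/ob and lean mice without muscle receptor, Rrad was at 1.32-fold (1.11 to 1.56), a log2 fold change of 0.40. Gem was called lower, at 0.443-fold (0.342 to 0.571) and -1.18 on the log2 scale, and Rem1 was at 0.618-fold (0.452 to 0.842) and -0.69. The background here was large, since 936 of 11590 genes (8.08%) were called lower and 228 (1.97%) higher, and the median of tested genes was -0.20. With DESeq2 size factors, 562 genes were lower and 373 higher, so that 39.9% instead of 19.6% of the calls were upward. The log2 value of Gem was then -0.96, short of 2-fold, and its call does not hold under TMM, DESeq2 or upper quartile scaling. Relative to the median of all genes, Rrad was higher by 0.60, Gem lower by 0.97 and Rem1 lower by 0.49 on the log2 scale.

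**Figure D2:**
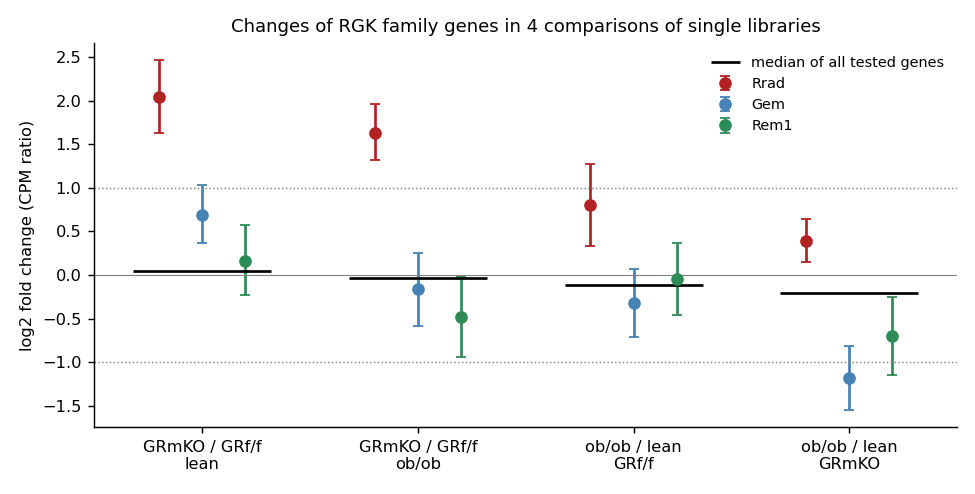
Log2 fold change in CPM (vertical axis) of Rrad, Gem and Rem1 in the 4 comparisons of single libraries (horizontal axis), with exact binomial 95% intervals for counting error, the median of all tested genes as black lines and 2-fold changes as dotted lines. Rrad lies above the median throughout, with 2.04 and 1.63 in the GRmKO against GRf/f comparisons, and Gem falls below the lower dotted line in ob/ob against lean GRmKO muscle (-1.18).

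Across both backgrounds, 40 of 11199 genes tested in both (0.357%) were called higher in GRmKO muscle and 48 (0.429%) lower. Rrad was the only member of the family among the 40, ranked by the smaller of its changes 19 overall and 8 among the 27 with at least 3 counts in every library used. Gem and Rem1 were called in neither direction. Nr3c1 itself was at -0.90 (lean) and -1.38 (ob/ob) on the log2 scale, and only the second passed 2-fold. These 2 genotype comparisons share no library, but each shares its libraries with the comparisons of ob/ob and lean mice.

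Endothelial and macrophage marker sums followed the same order of libraries as Gem and Rem1, and their part in those results was not tested. The 5 endothelial markers summed to 415, 505, 336 and 304 CPM and the 5 macrophage markers to 257, 307, 172 and 110 CPM in the order of groups used above, with 0 markers at 0 in either list. For Rrad, none of the 10 marker lists had the same order over all 4 libraries, but some moved with it in single comparisons. The 4 cardiomyocyte markers summed to 0.648, 0.665, 2.24 and 2.72 CPM, nominally the same direction as Rrad in all 4 comparisons, with 2, 2, 3 and 2 of the markers at 0. Between the lean libraries this rested mostly on Myh6, at 11.5 (GRf/f) and 11.2 (GRmKO) counts, too few to give a direction. The 8 myofibre markers summed to 95791, 91632, 101487 and 111848 CPM, the same direction as Rrad in 3 of the 4. The 5 satellite cell markers summed to 38.2, 46.5, 50.7 and 40.6 CPM, lowest in lean GRf/f muscle as Rrad was. They moved with Rrad in the 2 comparisons without the ob/ob GRmKO library and against it in the rest. The 4 fibroblast markers (3901, 4294, 6915 and 3987 CPM) and the 4 Schwann cell markers (340, 426, 480 and 417 CPM) did the same. The 5 adipocyte markers summed to 491, 258, 255 and 137 CPM, lower in GRmKO muscle of each background. The part of these cell types in the values of Rrad was not tested.

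Among the voltage-gated calcium channels that RGK proteins inhibit is the L-type channel of the triad, where the voltage sensor Cacna1s faces the ryanodine receptor. Cacnb1 encodes the skeletal muscle form of the β subunits that RGK proteins bind. It was at 83.1, 90.7, 73.4 and 70.3 CPM per kb in the order of groups used above, against 1.89, 7.78, 3.30 and 10.2 CPM per kb for Rrad. Rrad, corrected for length, amounted to 22.8 (17.4 to 29.3) per 1000 Cacnb1 in lean GRf/f, 85.8 (75.0 to 97.7) in lean GRmKO, 45.0 (36.8 to 54.4) in ob/ob GRf/f and 146 (130 to 163) in ob/ob GRmKO muscle. The ratio was 3.76-fold higher in GRmKO muscle of lean mice and 3.24-fold higher in ob/ob mice. It was 1.97-fold higher in ob/ob than in lean GRf/f and 1.70-fold higher in ob/ob than in lean GRmKO muscle. The 4 ratios did not overlap and followed the order of Rrad itself, since Cacnb1 differed by less between libraries.

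**Figure D3:**
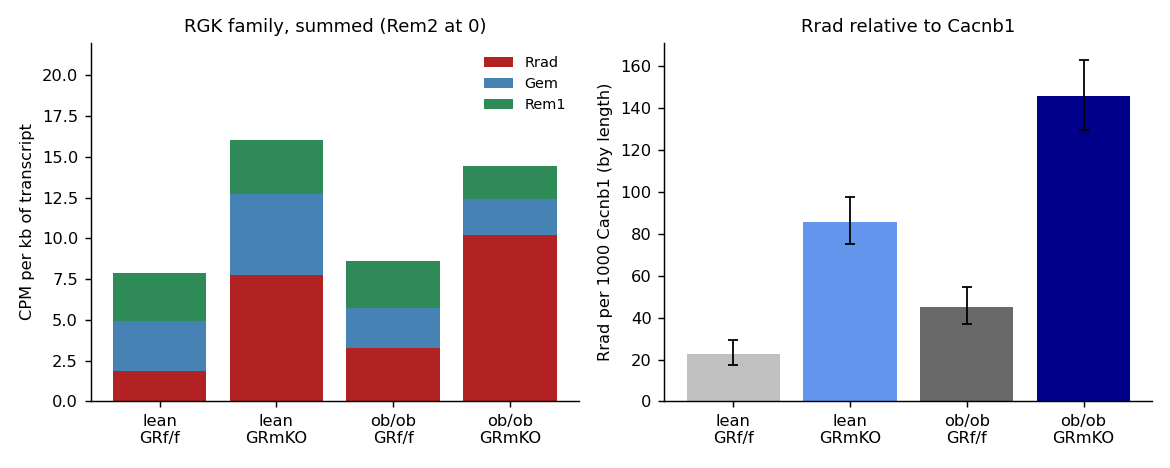
Left, the length-corrected level of Rrad, Gem and Rem1 stacked in each library (vertical axis, CPM per kb of transcript), and right, Rrad per 1000 Cacnb1 by length with 95% intervals for counting error. Rrad takes 24% of the RGK total in lean GRf/f and 70.8% in ob/ob GRmKO muscle, and its ratio to Cacnb1 runs from 22.8 to 146.

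Other parts of the channel and its partners were then read from gene lists. Of all tested genes, 2.19% were called higher and 2.09% lower in lean GRmKO against GRf/f muscle, 2.08% and 2.87% in ob/ob GRmKO against GRf/f muscle, 2.43% and 4.13% in ob/ob against lean GRf/f muscle, and 1.97% and 8.08% in ob/ob against lean GRmKO muscle. The lists of channel subunits are short, and their calls are given gene by gene. Of 10 pore subunit genes, 5 were tested in each comparison, and Cacna1s, the voltage sensor, showed log2 changes of -0.11 in lean and 0.00 in ob/ob GRmKO against GRf/f muscle. Cacna1g, a T-type channel, made up all calls in this list. It was listed at 62.7, 0, 218 and 206 expected counts, called lower in lean GRmKO against GRf/f muscle and higher in ob/ob against lean mice of both genotypes. Of 4 β subunits, Cacnb4 was at 0 in both GRf/f libraries and at 71.1 and 72.4 counts in the GRmKO libraries, at least 24.7-fold higher in lean and 24.2-fold higher in ob/ob mice against a floor of 3 counts. Cacnb3 was at 78.2, 84.9, 0 and 76.4 counts, and its single 0 gave a higher call in ob/ob GRmKO against GRf/f muscle and a lower call in ob/ob against lean GRf/f muscle. Each gene is listed with a single transcript, and whether its count covers the gene's other transcripts was not tested. The 0 values of Cacna1g, Cacnb4 and Cacnb3, and the folds from them, may therefore not hold for the whole gene. The genotype changes of Cacnb1 were 0.13 (lean) and -0.06 (ob/ob) on the log2 scale, close to the all-gene medians.

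Among 12 α2δ and γ subunits, 5 were tested, and Cacna2d4 was called higher in ob/ob GRmKO muscle with 15.4 counts in ob/ob GRf/f and 55.2 in ob/ob GRmKO (log2 1.84), and lower in ob/ob against lean GRf/f muscle (-2.02). Cacng1, the skeletal muscle γ subunit, had genotype changes of 0.00 and 0.22. Of 6 triad protein genes 4 were tested and 0 were called, too few to set against shares of 1.97% to 8.08% of all tested genes called in the 4 comparisons. They had medians of -0.06 and 0.03 between genotypes, with Ryr1, the calcium release channel, at -0.25 and 0.02. Of 20 genes for RGK binding proteins (14-3-3 proteins and CaM kinases among them), 19 were tested and 0 were called between genotypes in either background, near the background of 2.19% higher and 2.09% lower in lean and 2.08% and 2.87% in ob/ob mice. Their medians were -0.03 in lean and 0.07 in ob/ob mice, beside 0.04 and -0.04 for all genes. In ob/ob against lean GRmKO muscle Camk2b, a CaM kinase, was called higher (1.12) and Ywhaq, a 14-3-3 protein, lower (-1.10), beside 1.97% and 8.08% of all tested genes. The Ywhaq call is lost under TMM factors.

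The other Ras-like GTPases served as a comparison within the superfamily. Of 31 genes, 23 were tested, and 0 were called in lean GRmKO against GRf/f muscle, with a median log2 change of 0.10. In ob/ob mice 0 were higher and 2 were lower, Rasd2 by -1.83 and Rasd1, a dexamethasone-induced GTPase, by -1.29, beside 2.87% of all tested genes lower, with a median of -0.09. In ob/ob against lean mice 0 were called in GRf/f muscle, where 2.43% of all tested genes were higher and 4.13% lower. In GRmKO muscle 0 were higher and 1 was lower, again Rasd2 (-1.31), beside 1.97% and 8.08% of all tested genes. Rasd2 had 547, 332, 501 and 141 expected counts. Rheb, the activator of mTORC1, was at 82.7, 88.2, 69.7 and 61.3 CPM. With 2.19% and 2.08% of all tested genes called higher between genotypes, a count of 0 of 23 is near the background.

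Rrad is known to be induced in denervated and regenerating muscle, and 14 of 17 listed genes of denervated and developing muscle were tested. In lean GRmKO against GRf/f muscle 4 were called higher and 0 lower, beside 2.19% and 2.09% of all tested genes, with a median log2 change of 0.68 beside 0.04 for all genes. In ob/ob mice 4 were higher and 1 lower, beside 2.08% and 2.87%, with a median of 0.77 beside -0.04. Myog, a myogenic transcription factor, had 128, 271, 158 and 442 expected counts, which gave log2 changes of 1.14 (lean) and 1.49 (ob/ob). Chrna1, the acetylcholine receptor α subunit, had 382, 876, 681 and 1557 counts, with changes of 1.26 and 1.19. Actc1, cardiac α-actin, had 17172, 67910, 6504 and 64951 counts and changes of 2.04 and 3.32, and it is closely similar in coding sequence to Acta1, so the assignment of reads between them is uncertain. Myh3, embryonic myosin, was at 22.1, 77.2, 142 and 0 counts, called higher in lean and lower in ob/ob GRmKO muscle. In ob/ob against lean mice 3 of the list were higher and 1 lower in each genotype, beside 2.43% and 4.13% of all tested genes in GRf/f and 1.97% and 8.08% in GRmKO muscle, with medians of 0.30 and 0.22. The largest rises were Myh3 in GRf/f (2.67) and Myh8, perinatal myosin, in GRmKO muscle (1.49). Called higher in both genotype comparisons were Myog, Chrna1 and Actc1. Of the 14 tested genes, 13 were above 0 and 1 below in lean mice, and 12 above and 2 below in ob/ob mice. Musk was lower in GRmKO muscle of both backgrounds (-0.93 and -0.42) and was not called. Dach2, too low to be tested, was also lower, with 37.6, 14.0, 47.6 and 3.87 counts.

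**Figure D4:**
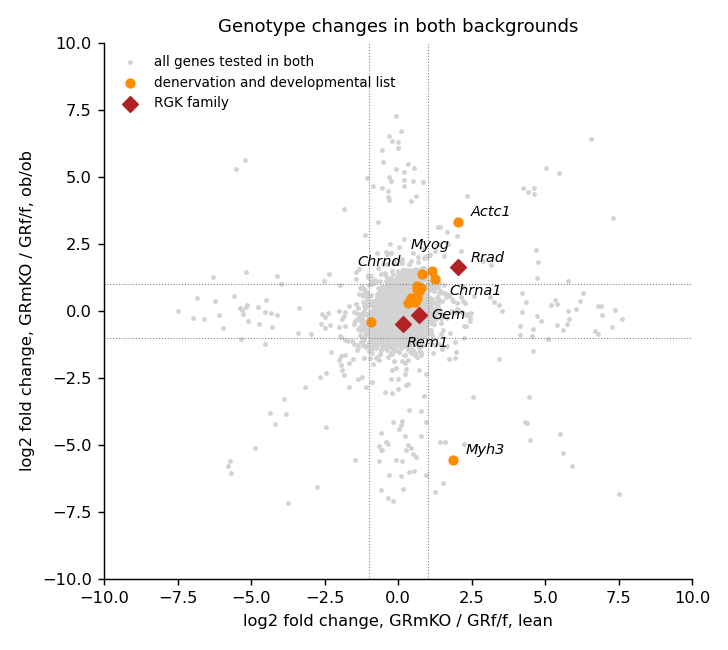
Log2 fold change of GRmKO against GRf/f muscle in lean mice (horizontal axis) and in ob/ob mice (vertical axis) for all genes tested in both, with the RGK members as red diamonds, the denervation and developmental list in orange and 2-fold lines dotted. Rrad (2.04 and 1.63) sits in the upper right with Myog, Chrna1 and Actc1, while Gem (0.69 and -0.16) and Rem1 (0.17 and -0.48) sit near the centre and Myh3 falls far below.

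Immediate early genes, which like Gem respond quickly to stimuli, and glucocorticoid receptor targets were read from lists as well. Of 13 immediate early genes, 12 were tested in lean mice, where 5 were called higher and 1 lower in GRmKO muscle, beside 2.19% and 2.09% of all tested genes. In ob/ob mice 2 of 13 were higher and 0 lower, beside 2.08% and 2.87%. The median log2 changes were 0.70 and 0.18, beside 0.04 and -0.04 for all genes. Between ob/ob and lean mice 4 of 11 were higher in GRf/f and 1 of 13 in GRmKO muscle, beside 2.43% and 1.97% of all tested genes, and 0 were lower. Fosb, a partner of Jun, was at 0 counts in lean GRf/f and at 84.1, 124 and 94.6 in the other libraries, while Nr4a3, a nuclear receptor, was lower in lean GRmKO muscle by -1.68. The lean GRf/f library was also the lowest for Fos (234, 982, 952 and 1362 counts), Egr1 (313, 1218, 1140 and 1165) and Egr3 (16.0, 70.8, 41.0 and 52.9), which were picked out after their values were seen. It was the lowest for Rrad as well, and its part in the lean comparison of Rrad was not tested. Of 15 receptor targets, 0 were called higher and 4 lower in lean GRmKO muscle, where 2.09% of all tested genes were lower. In ob/ob GRmKO muscle 0 were higher and 1 was lower, near the 2.87% of all tested genes. Their median log2 changes were -0.44 and -0.23. Between ob/ob and lean mice, Ddit4, an inhibitor of mTORC1, was the 1 call in GRf/f muscle (-1.84), where 4.13% of all tested genes were lower, and Cdkn1a, a cell cycle inhibitor, the 1 call in GRmKO muscle (1.09), where 1.97% were higher. Fkbp5, a co-chaperone of the receptor and a classical target, had 1844, 454, 2218 and 547 counts, with log2 changes of -1.96 and -2.02. Rrad and Fkbp5 thus moved in opposite directions in both backgrounds.

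Likeness to Rrad was measured as the Euclidean distance between log2 CPM profiles centred on their mean over the 4 libraries, among 11864 genes with at least 50 counts in a library. The 5 nearest genes were Slc25a13, a mitochondrial aspartate-glutamate carrier (distance 0.491), Fam83d (0.560), Rhno1 (0.617), Cdh4, a cadherin (0.619), and Nagk, an N-acetylglucosamine kinase (0.629). Slc25a13 had only 15.0, 41.0, 17.0 and 57.9 counts, so its closeness is no more precise than those counts allow. Cdh4 had 270, 592, 392 and 1042 counts and repeated the order of Rrad. Myog ranked 7 (0.656) and Chrna1 ranked 8 (0.659), whereas Actc1, also called higher in both genotype comparisons, ranked 2148 (1.82). With 4 points per profile, many genes share the same order, and the ranks are a description.

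The other members did not resemble Rrad by this measure. Gem ranked 6766 and Rem1 ranked 8727 of 11864 by distance to Rrad, at distances of 2.08 and 2.22. The distance between Gem and Rem1 was 0.575, which ranked Rem1 1783 among the genes nearest to Gem and Gem 6343 among those nearest to Rem1, so neither stood out as close to the other. For Gem and Rem1 the nearest genes were looked up in the same way after the values of Rrad had been seen. They were Zfp433, Inka1, Tpra1, Lum and Akna for Gem, and Kcnab1, Ehd2, Nrm, Gja1 and Cav1 for Rem1, where Cav1 and Ehd2 are proteins of caveolae and Gja1 is a gap junction protein. Nr3c1 ranked 11466 by distance to Rrad.

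**Figure D5:**
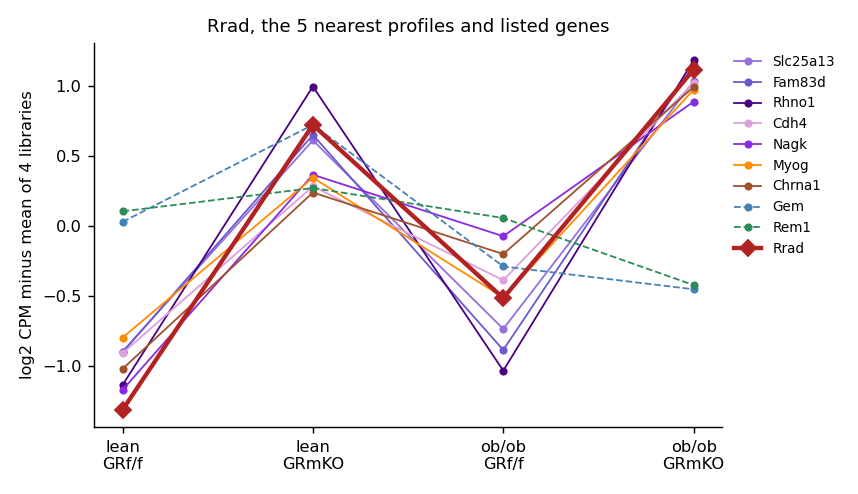
Log2 CPM minus the mean of the 4 libraries (vertical axis) for Rrad (thick red line), the 5 nearest genes (purple and pink), Myog (orange), Chrna1 (brown) and the members Gem and Rem1 (dashed), in each library (horizontal axis). The solid lines run low, high, low, high as Rrad does (distances 0.491 to 0.659), whereas Gem and Rem1 end at their lowest value in ob/ob GRmKO muscle.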

How the data were processed

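Gastrocnemius RNA of 3 mice was pooled per group and sequenced as 1 library (DNBSEQ-G400, paired-end reads). The authors quantified reads on protein-coding transcripts with Salmon 1.2.1, summarized them with tximport (length-scaled TPM) in R 3.5.0, and deposited expected counts of 22252 genes, with no scaling across libraries. Of entries that shared a gene name, the paper reports keeping the one with the most counts in each sample. Each gene is listed with a single transcript, so a count, and a 0 in particular, may not cover the gene's other transcripts. CPM, folds and intervals were computed here from these counts in Python 3.11.15 (numpy 2.4.6, pandas 2.3.3, scipy 1.17.1, statsmodels 0.14.6). Wilson and exact binomial intervals used counts rounded to whole numbers. Genes were called at a CPM fold of at least 2 with at least 50 expected counts in 1 library of the pair, and counts below 3 were set to 3. The authors' NOISeq was not used, since it simulates replicates. Each comparison set 1 library against another and was described without a test. An additive model of genotype and background over the 4 libraries, which would leave 1 residual degree of freedom, was not fitted. The members and lists were chosen with earlier results of these data known. Genes named from a list were the one with the highest mean CPM (not divided by length), those called alike in both genotype comparisons, and its largest called rise and fall. The 5 genes nearest to Rrad were also named. The text leaves out 1 gene that met this rule. Lengths and coordinates come from GENCODE M21, in which all 22252 listed transcripts were found, 21684 under the same gene name. In R 4.3.3, edgeR 4.0.16 and DESeq2 1.42.0 gave scaling factors for alternatives. Other alternatives were upper quartile scaling, totals that leave out the 50 genes with the most counts, totals over genes above 0 in all 4 libraries, other minimum counts and folds, and ratios without length. Figures were drawn with matplotlib 3.10.9.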

Additional observations from a re-analysis of the deposited data

Results flagged for a closer look

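The genotype change of Gem was 0.69 in lean and -0.16 in ob/ob mice on the log2 scale, opposite in sign, a difference of -0.86 (counting interval -1.37 to -0.34). Rem1 had 0.17 in lean and -0.48 in ob/ob mice, a difference of -0.65 (counting interval -1.23 to -0.06). In both genes one of the changes was within counting error, and with 1 library per group the difference between backgrounds was not tested against the variation between mice.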

How the results depend on the processing

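Each group had 1 library, so no replicate could be left out. No paired analysis was possible because each group had a single library. All 60 log2 fold changes of Rrad, Gem and Rem1 recomputed under 5 scalings stayed within the counting interval of the reported value. Rrad ranged from 1.98 to 2.04 in lean and from 1.63 to 1.70 in ob/ob GRmKO against GRf/f muscle, and its calls there held at 3-fold and at a minimum of 200 counts, where Gem and Rem1 were not tested. Scaling by TMM, DESeq2 or upper quartile shifted all genes by up to 0.12 in ob/ob against lean GRf/f and by up to 0.21 in ob/ob against lean GRmKO muscle. In the latter, 228 higher and 936 lower calls became 359 to 373 and 562 to 584, and the Ywhaq and Gem calls were lost under TMM factors. Call counts over the 8 comparisons and directions, 228 to 936, became 539 to 2445 at 1.5-fold, 94 to 270 at 3-fold, 527 to 1549 at 10 counts and 76 to 426 at 200 counts. Without division by length, Rrad per 1000 Cacnb1 was 129 in ob/ob GRmKO muscle. Counts of list members under each scaling were added after the data had been seen. They moved for immediate early genes higher in ob/ob against lean GRmKO muscle, from 1 to 2 under 4 scalings, and for receptor targets lower in lean GRmKO muscle, from 4 to 5 under TMM and DESeq2.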
